A study of Mus musculus with 4 samples.

Results

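The genes described here are 9 feedback inhibitors of the mitogen-activated protein kinase (MAPK) pathways: the dual-specificity phosphatases Dusp1, Dusp2, Dusp4, Dusp5, Dusp6 and Dusp10, the Sprouty genes Spry1 and Spry2, and the Sprouty-related gene Spred1. They were chosen by symbol as known feedback genes, with earlier results of these data known, and all 9 were found among the 32285 genes of the deposited count tables. Their counts beside the share of all genes are therefore description and not an independent test. Single cells were profiled in droplets, with counts from the 3′ ends of transcripts, for splenic T cells of C57BL6/J mice, sorted for CD3 and CD4 and cultured for 6 hours with beads carrying antibodies to CD3 and CD28. The 4 libraries were a female and a male one labelled Irf5-/- and a female and a male one labelled WT, all treated alike, with no unstimulated library analysed here. Neither the number and age of the mice behind each library nor a batch is given in the labels, so p-values refer to these libraries only. The edgeR tests used below moderate the spread of each gene by that of all genes tested. Their p-values therefore do not measure the spread between the 4 libraries alone and are not compared between comparisons. The 6 hours are a single time, and the allele of Irf5 and the exons it lacks are not given in the sources used here.

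T cell receptor signalling activates RAS, which starts the kinase relay of RAF, MEK and ERK, and in parallel the stress kinases p38 and JNK. ERK activity switches on immediate early genes such as Egr1, Egr3 and Nr4a1, and among the genes it induces are phosphatases and adaptors that switch the relay off again. The dual-specificity phosphatases remove phosphate from both the threonine and the tyrosine of the kinase's activation loop, while Sprouty and Spred proteins act upstream, on RAS and RAF.

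Cells were barcodes with at least 2000 UMIs, at least 500 genes and at most 10% mitochondrial UMIs, which gave 1814 to 6543 cells per library and 19100 in all, with median depths of 5104.5 to 9661 UMIs. The library totals were 28841161 to 55850754 UMIs, and the female library labelled WT had the fewest cells and 36.2% of its UMIs in droplets under 200 UMIs, against 8.62% to 14.7% in the others. Pairs of libraries shared 2 to 14 cell barcodes, at most 0.55% of a library. The 6 T cell markers summed to 2481 to 2861 CPM (UMIs of a gene scaled to a fixed total of UMIs, the usual measure of level) and Cd4 to 44.4 to 53.9 CPM, while the 5 B cell markers reached at most 6.52, the 5 NK cell markers 5.53, the 5 myeloid markers 13.9 and the 5 erythroid markers 38.4 CPM. Irf5 went against the labels, at 8.57 and 9.07 CPM in the female and male libraries labelled Irf5-/- and at 0.94 and 1.18 CPM in those labelled WT (log2 fold change 2.94, SE 0.18, adjusted p = 6.00e-07, edgeR). Libraries are therefore named by their labels, and because 3′ reads may lie outside the deleted part, these counts cannot tell whether the deletion is present.

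Promoter sequence was available in RefSeq (GRCm38.p6) for 8 of the 9 genes, all but Dusp4. It is shown for Dusp2, Dusp1 and Dusp5, the genes higher in Nr4a1-rich cells whose windows held a capitalised motif, and for Dusp10, which was lower in those cells. Spry1, Dusp6 and Spred1 were also higher there but held none of the capitalised motifs and are not printed. Each line holds the 250 bases before the RefSeq start, 5′ to 3′ on the strand of the gene, and capitals mark matches, on either strand, to the CRE, its half-site, the EGR motif, the CArG box or the E-box spelled out below.
Dusp2, chr2:127335909-127336158, plus strand: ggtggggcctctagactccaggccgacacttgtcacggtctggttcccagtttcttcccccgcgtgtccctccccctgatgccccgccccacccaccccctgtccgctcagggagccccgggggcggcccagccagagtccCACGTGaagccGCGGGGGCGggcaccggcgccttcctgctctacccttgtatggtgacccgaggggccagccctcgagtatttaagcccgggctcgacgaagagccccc
Dusp1, chr17:26508473-26508722, minus strand: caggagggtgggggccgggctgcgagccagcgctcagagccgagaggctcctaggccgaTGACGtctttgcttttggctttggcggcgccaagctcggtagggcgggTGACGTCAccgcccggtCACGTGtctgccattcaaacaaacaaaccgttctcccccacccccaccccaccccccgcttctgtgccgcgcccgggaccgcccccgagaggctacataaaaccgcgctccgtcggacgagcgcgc
Dusp5, chr19:53528895-53529144, plus strand: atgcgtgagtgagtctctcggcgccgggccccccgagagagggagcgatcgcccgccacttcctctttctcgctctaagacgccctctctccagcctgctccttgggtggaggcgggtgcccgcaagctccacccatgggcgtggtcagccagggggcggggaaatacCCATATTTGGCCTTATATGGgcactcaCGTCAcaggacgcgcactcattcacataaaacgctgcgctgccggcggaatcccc
Dusp10, chr1:184034131-184034380, plus strand: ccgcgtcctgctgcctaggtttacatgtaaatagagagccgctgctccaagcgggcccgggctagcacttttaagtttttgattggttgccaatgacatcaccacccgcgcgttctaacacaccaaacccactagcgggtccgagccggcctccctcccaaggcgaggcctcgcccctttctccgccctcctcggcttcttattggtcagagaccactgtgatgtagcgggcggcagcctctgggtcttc

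Motifs were counted on both strands over windows of 300 bases, the 250 printed plus 50 after the start, in 32851 RefSeq promoters. The cyclic AMP response element (CRE) TGACGTCA was found in Dusp1 alone of the 8 genes and in 1.79% of all promoters. Its half-site TGACG, which lies within the CRE, was found in Dusp1, Dusp2 and Dusp5 and in 20.8% of promoters, and the Dusp2 match lay after the start. The EGR motif GCGNGGGCG was found in Dusp2 and in 5.55% of promoters. Dusp5 held 2 adjacent CArG boxes, the element of serum response factor, which 1.63% of promoters held at least once. Dusp1 and Dusp2 held the E-box CACGTG, as did 7.15% of promoters, and no member held the AP-1 motif TGANTCA, found in 7.81%. The ETS motif CCGGAA was in Spry2 and in 14.9% of promoters, and the NFAT core GGAAA was in Dusp1, Dusp5, Dusp6, Spry2 and Spred1 and in 61.3%. The windows of Dusp10 and Spry1, which moved in opposite directions with Nr4a1, held none of these motifs. These matches describe letters in one window per gene, and the windows of Dusp1 and Dusp10 lie inside the longer gene spans of GENCODE M21.

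Activation was read from 3 early response genes: Egr3 and Nr4a1, transcription factors induced by T cell receptor signalling, and Myc, the growth regulator. Every cell was thinned to 2000 UMIs to set its class, with at least 3 UMIs of the marker against 0, and all UMIs of the cells in a class were then summed per library. With Nr4a1 the high class held 378 to 1094 cells per library. Of the 9 feedback genes, 7 passed at an adjusted p under 0.05, against 71.6% of the 10879 genes tested, so the count is near the background. By direction 6 were higher, against 34.4% of all genes, and 1 was lower, against 37.2% (24.6% and 48.2% of all genes without TMM, the edgeR scaling of library sizes). Their median log2 fold change was 0.84, and that of all genes tested was -0.04. The same members passed with Myc except for Dusp6, 6 of 8 tested against 55.1% of 10388 genes, 5 of them higher (26.5% of all genes) and 1 lower (28.6%), the shares of all genes being 20.2% and 36.0% without TMM scaling. With Egr3 the high class held only 50 to 110 cells per library, and 3 of 9 passed against 33.9% of 11017 genes, 1 higher (14.6% of all genes) and 2 lower (19.3%). These 3 comparisons use the same cells, so they are not independent of each other. Markers of other lineages moved with the classes, and their part was not tested. The 5 erythroid markers summed to 6.39 to 67.2 CPM in the Nr4a1 low class and 0 to 1.93 in the high class, and to 3.001 to 62.9 against 0 to 1.21 CPM with Myc. The 5 B cell markers were at 0.66 to 10.6 against 0.19 to 0.99 CPM with Nr4a1 and 1.16 to 8.74 against 0 to 0.88 with Myc, and the 5 NK cell markers at 1.57 to 6.48 against 0 to 1.14 and 2.00 to 7.64 against 0 to 2.95. The 5 myeloid markers were at 3.22 to 8.90 against 1.61 to 3.79 CPM with Nr4a1 and 3.03 to 19.7 against 1.47 to 4.38 with Myc. Cd4 was at 46.1 to 62.6 against 27.9 to 36.4 CPM with Nr4a1 and 51.3 to 61.9 against 25.8 to 40.6 with Myc. Foxp3, the factor of regulatory T cells, was lower in the Nr4a1 high class of every library (22.2 ± 11.03 against 10.3 ± 4.76 CPM, SD, n = 4) and in the Myc high class of 3 libraries (18.2 ± 9.56 against 11.8 ± 7.52). The 4 regulatory T cell markers summed to 360.1 to 542 against 515 to 585 CPM with Nr4a1 and 359 to 526 against 533 to 626 with Myc. The activation markers were also in droplets under 200 UMIs, with Nr4a1 at 413 to 526 CPM against 538 to 649.6 in cells, Egr3 at 47.8 to 61.6 against 65.6 to 89.3 and Myc at 202 to 259.5 against 269 to 357. The part of such free RNA in cells with few UMIs of a marker was not tested.

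**Figure D1:**
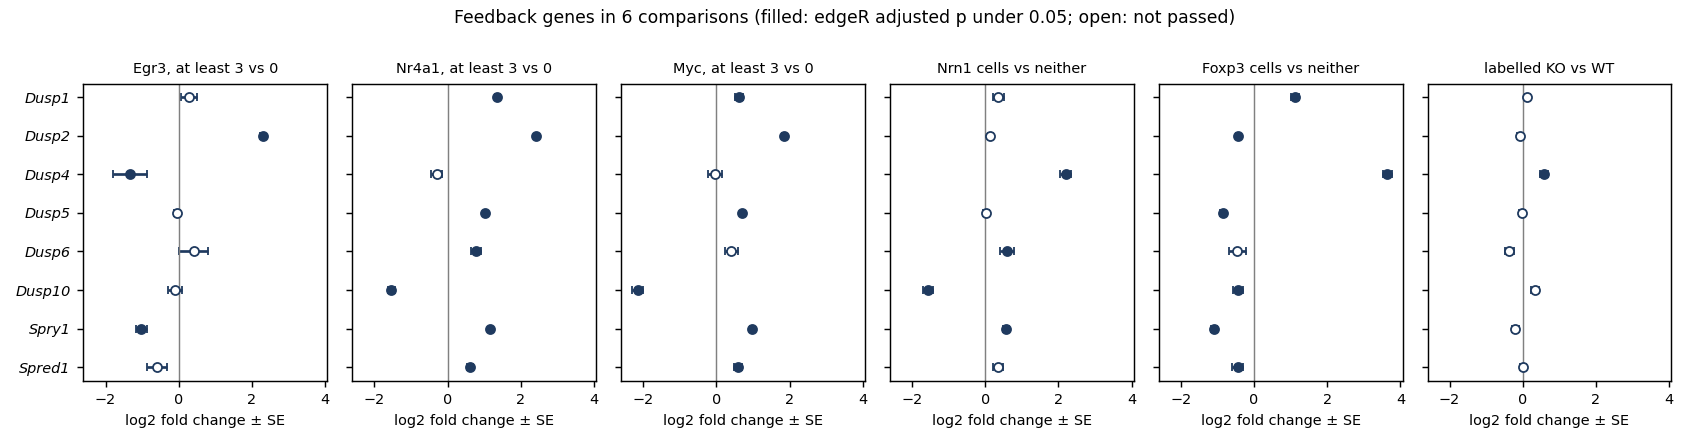
Log2 fold changes (x axis, with standard errors from edgeR) of 8 feedback genes (y axis, Spry2 left out for low counts) in 6 comparisons, over 4 libraries each, with filled points for an adjusted p under 0.05. Dusp2 sits furthest right in the 3 activation panels, Dusp10 furthest left with Nr4a1 and Myc, and Dusp4 furthest right in Foxp3 and Nrn1 cells.

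Dusp2, a nuclear phosphatase of ERK and p38 known from activated lymphocytes (chromosome 2, 127336159 to 127338376, plus strand, GRCm38), rose most of the 9 genes with every activation marker. In cells with 0 Nr4a1 UMIs it stood at 170 and 192 CPM in the female and male libraries labelled Irf5-/- and at 159 and 188 in those labelled WT. In cells with at least 3 it stood at 821, 829, 827 and 913 CPM in the same order. All high values lay far above all low ones, and the log2 fold change was 2.43 (SE 0.04, edgeR adjusted p = 4.47e-22). With Egr3 it went from 276, 301, 271 and 299 to 1356, 1342, 1200 and 1469 CPM, a log2 fold change of 2.29 (SE 0.06, edgeR adjusted p = 3.82e-309). The SE was larger than with Nr4a1 and the p far smaller, so these p-values are not compared. With Myc it went from 203 to 259 CPM in the low class to 737 to 832 CPM in the high class (log2 fold change 1.85, SE 0.04, adjusted p = 1.54e-24, edgeR). No value of one class overlapped the other in any of the 3 comparisons.

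Dusp2 was graded over the whole range of activation. Its mean over libraries climbed through the Nr4a1 bins 0, 1, 2, 3 to 4, 5 to 8 and at least 9 as 177 ± 15.2, 324 ± 29.9, 457 ± 67.3, 657 ± 46.9, 1055 ± 74.1 and 1290 ± 102 CPM (SD, n = 4). Each step up exceeded the SD of both bins. Droplets under 200 UMIs had 264 to 364 CPM of Dusp2, above the low class and below the high class in every library, and the part of that RNA was not tested. When cells with neither Foxp3 nor Nrn1 UMIs were split by presence of each marker, Dusp2 lay at 144 ± 15.6 CPM (SD, n = 4) in the 8223 cells with none of Egr3, Nr4a1 and Myc. It lay at 264 ± 16.4 with Myc alone, 362 ± 33.8 with Nr4a1 alone and 564 ± 25.9 with both of these. The 896 cells with all 3 markers had 1150 ± 69.0 CPM, the highest of these groups.

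Dusp5, a nuclear phosphatase specific for ERK (chromosome 19, 53529109 to 53542431, plus strand), and Dusp1, a nuclear phosphatase of p38, JNK and ERK (chromosome 17, 26505590 to 26562128, minus strand), also rose with Nr4a1. Dusp5 was at 274, 255, 265 and 261 CPM in the low class and at 511, 466, 497 and 430 CPM in the high class, in the order female and male labelled Irf5-/-, then female and male labelled WT. The log2 fold change was 1.02 (SE 0.03, edgeR adjusted p = 4.17e-16), with no overlap between the classes. By number of Nr4a1 UMIs, Dusp5 had 264 ± 7.81 CPM at 0, 404 ± 38.4 at 1 and 525 ± 18.2 at 9 or more (SD, n = 4). Dusp1 was at 24.5, 24.8, 20.03 and 20.2 CPM in the low class and at 50.6, 54.2, 51.3 and 49.97 CPM in the high class (log2 fold change 1.36, SE 0.07, adjusted p = 1.56e-13, edgeR). Every value of the high class again exceeded every value of the low one, and the bin means went from 22.4 ± 2.63 at 0 to 68.5 ± 17.2 CPM at 9 or more UMIs (SD, n = 4).

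The split by presence gave different levels of Dusp1 for Nr4a1 and Myc. Cells with Myc alone had 21.03 ± 2.16 CPM and cells with no marker 19.7 ± 2.47, while cells with Nr4a1 alone had 38.9 ± 3.77 (SD, n = 4 each). The difference between these groups is given as values and was not tested. In the Myc comparison Dusp1 still rose, by a log2 fold change of 0.61 (SE 0.10, edgeR adjusted p = 9.70e-06), in cells whose Nr4a1 was also higher. Dusp5 rose with Myc by 0.71 (SE 0.04, edgeR adjusted p = 6.44e-15), and cells with Myc alone had 382 ± 7.68 CPM against 232 ± 14.3 with no marker. Droplets under 200 UMIs, a reading of free RNA, had more Dusp1 than cells in every library, 31.9 to 52.3 against 27.7 to 33.2 CPM, and its part was not tested. Dusp1 shares its span with Ergic1 on the other strand, and Dusp5 overlaps an antisense RNA. Whether counting used strand is not stated, so reads from the partners cannot be told apart.

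**Figure D2:**
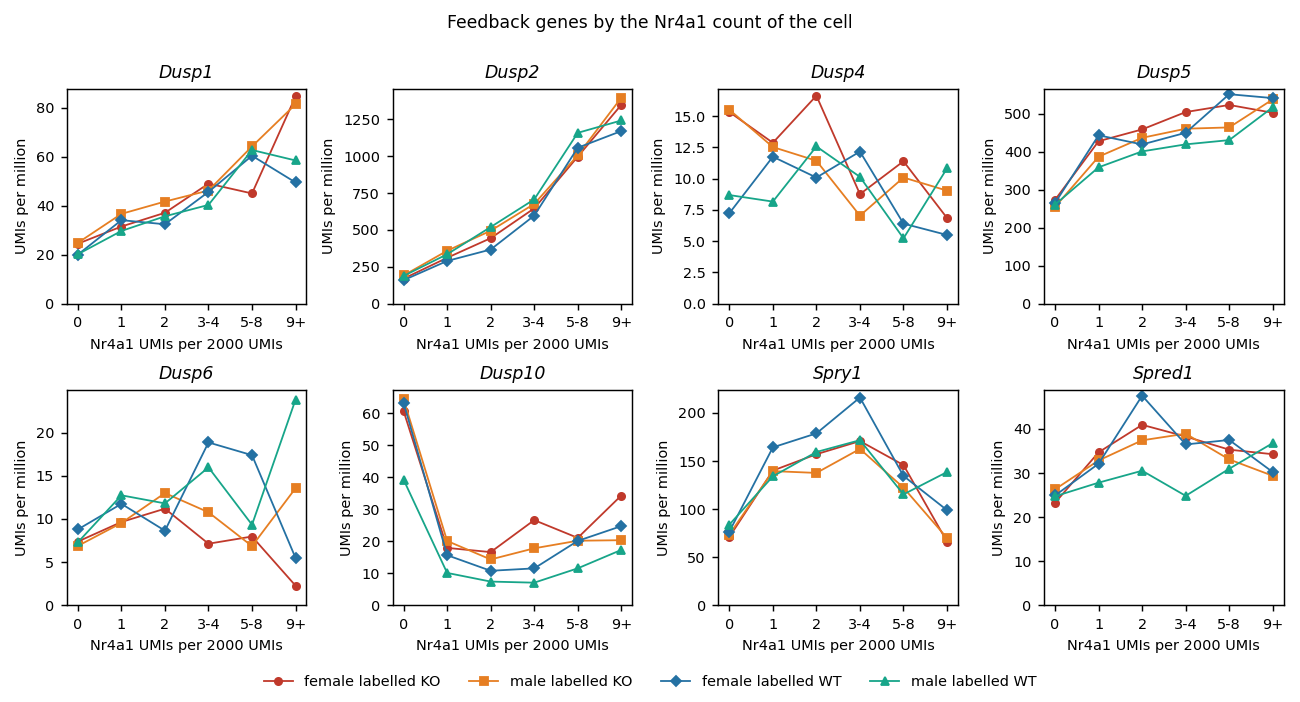
Levels of 8 feedback genes (y axis, CPM, each panel with its own scale from 0) by the number of Nr4a1 UMIs of the cell after thinning to 2000 UMIs (x axis), with 1 line per library. Dusp2 rises at every step, Dusp10 drops after the first bin, and Spry1 peaks at 3 to 4 UMIs.

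Dusp6, a cytoplasmic phosphatase of ERK (chromosome 10, 99263231 to 99267489, plus strand), was counted at low levels. It had 7.39, 6.89, 8.79 and 7.30 CPM in the Nr4a1 low class and 7.01, 9.64, 16.8 and 14.0 CPM in the high class. The female library labelled Irf5-/- did not move up, and the classes overlapped there. Over the 4 libraries the log2 fold change was 0.78 (SE 0.15, edgeR adjusted p = 9.21e-05). With Myc it was 0.41 (SE 0.19, edgeR adjusted p = 0.0606) and did not pass. It did pass with Myc without the female library labelled WT (0.55, edgeR adjusted p = 0.0186), without doublets (0.45, 0.0453), with at least 1 thinned UMI against 0 (0.28, 0.0118) and with at least 3 unthinned UMIs (0.78, 9.12e-06). Droplets under 200 UMIs had 8.42 to 13.9 CPM of Dusp6, against 8.07 to 10.8 in cells; the part of such RNA was not tested.

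Dusp10, a phosphatase of JNK and p38 (chromosome 1, 184013302 to 184075636, plus strand), fell with Nr4a1 and with Myc. It had 60.6, 64.2, 63.2 and 39.2 CPM in the Nr4a1 low class and 25.4, 18.8, 16.1 and 9.46 CPM in the high class. The male library labelled WT was lowest in both classes, and no high value reached any low one. The log2 fold change was -1.53 (SE 0.09, edgeR adjusted p = 9.28e-12), and with Myc it was -2.15 (SE 0.15, edgeR adjusted p = 3.33e-13). In all 13 alternatives with Nr4a1, the one with T cells only among them, it stayed between -2.46 and -1.46. By number of Nr4a1 UMIs it had 56.8 ± 11.8 CPM at 0, 16.0 ± 4.29 at 1 and 24.2 ± 7.40 at 9 or more (SD, n = 4). Droplets under 200 UMIs had 24.8 to 43.6 CPM of Dusp10, above the high class in every library, and the part of that RNA was not tested. Cells with no marker had 73.5 ± 14.7 CPM, and cells with Nr4a1 alone 17.6 ± 6.89 (SD, n = 4). A protein-coding gene, 1700056E22Rik, lies on the other strand within the span of Dusp10.

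Spry1, an inhibitor of RAS signalling that receptor signals induce (chromosome 3, 37639947 to 37644598, plus strand), had 71.1, 73.6, 76.7 and 83.9 CPM in the Nr4a1 low class and 154, 144, 174 and 148 CPM in the high class. The classes did not overlap, and the log2 fold change was 1.17 (SE 0.05, edgeR adjusted p = 4.72e-14). The bins showed a peak rather than a steady climb. Spry1 reached 180 ± 24.2 CPM at 3 to 4 Nr4a1 UMIs and was back at 93.5 ± 33.4 CPM at 9 or more, against 76.3 ± 5.53 at 0 (SD, n = 4). It rose with Myc by a log2 fold change of 0.98 (SE 0.06, edgeR adjusted p = 6.13e-14), and its Myc bins stayed between 144 ± 20.9 and 163 ± 38.8 CPM from 1 UMI up.

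Spred1, which brings the RAS inactivator neurofibromin to the membrane (chromosome 2, 117121374 to 117182279, plus strand), rose less. It had 23.3, 26.3, 24.9 and 24.8 CPM in the Nr4a1 low class and 37.0, 36.4, 36.1 and 27.9 CPM in the high class. The smallest step was that of the male library labelled WT, and the classes did not overlap. The log2 fold change was 0.62 (SE 0.08, edgeR adjusted p = 7.03e-07) with Nr4a1 and 0.60 (SE 0.10, edgeR adjusted p = 1.66e-05) with Myc.

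Spry2, a close relative of Spry1 (chromosome 14, 105891947 to 105896819, minus strand), was barely counted. The libraries held 31, 27, 23 and 29 Spry2 UMIs in all, and the 5 cells with the most held 35.5%, 37.0%, 56.5% and 62.1% of them. Its level in cells, 0.57 to 1.44 CPM, was below that in droplets under 200 UMIs, 1.10 to 3.63 CPM. It passed in none of the main comparisons, with Nr4a1 at a log2 fold change of 0.84 (SE 0.57, edgeR adjusted p = 0.189), and no state is read from it. With Nr4a1 it passed without the male library labelled Irf5-/- (1.34, edgeR adjusted p = 0.0416) and with at least 1 thinned UMI against 0 (1.12, 0.0277).

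Dusp4, a nuclear phosphatase of ERK and JNK (chromosome 8, 34807297 to 34819894, plus strand), did not follow Nr4a1 or Myc. It had 15.3, 15.5, 7.23 and 8.69 CPM in the Nr4a1 low class and 9.48, 8.17, 9.35 and 8.33 CPM in the high class. Both libraries labelled Irf5-/- were lower in the high class, while the female library labelled WT was higher (a log2 difference of 0.36) and the male one changed little (-0.06). The log2 fold change was -0.29 (SE 0.15, edgeR adjusted p = 0.0948), and with Myc -0.04 (SE 0.20, edgeR adjusted p = 0.868). Without the female or the male library labelled WT the Nr4a1 difference did pass, at -0.42 and -0.45 (edgeR adjusted p = 0.0230 and 0.0214), as it did without TMM scaling (-0.46, edgeR adjusted p = 0.0102), with no filter on low counts (-0.34, 0.0188) and in T cells only (-0.33, 0.0459).

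The Egr3 classes divided the genes differently, because several of them did not change in 1 direction along Egr3. Spry1 had 103, 102, 118 and 107 CPM at 0 Egr3 UMIs, 130, 125, 130 and 138 CPM at 1 or 2 UMIs, and 50.4, 34.0, 75.9 and 50.9 CPM at 3 or more. All 4 libraries rose and then dropped, and no value of the third class reached any of the first. The difference between 3 or more UMIs and 0 was -1.03 on the log2 scale (SE 0.15, edgeR adjusted p = 7.44e-11). Spred1 had the same shape, at 28.6 ± 1.88, 34.9 ± 4.22 and 18.4 ± 3.34 CPM (SD, n = 4), with -0.59 (SE 0.26, edgeR adjusted p = 0.0662) for 3 or more against 0. Without TMM scaling that difference passed, at -0.66 (edgeR adjusted p = 0.0353). Dusp5 was at 335 ± 19.4, 382 ± 21.8 and 309 ± 27.7 CPM (SD, n = 4), with -0.04 (SE 0.08, edgeR adjusted p = 0.730).

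Dusp10 had the opposite shape. It went from 44.5, 47.1, 44.0 and 28.3 CPM at 0 Egr3 UMIs to 30.1, 15.6, 11.7 and 10.7 CPM at 1 or 2, and to 60.5, 25.1, 56.2 and 17.6 CPM at 3 or more. Every library fell and then rose, and the female libraries ended above their start while the male ones ended below it. The log2 difference of 3 or more UMIs against 0 was accordingly -0.10 (SE 0.19, edgeR adjusted p = 0.731). Summing cells thinned to 2000 UMIs made that difference -0.94 (edgeR adjusted p = 0.0207).

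The middle class was tested against its neighbours after these bins had been seen. From 0 to 1 or 2 Egr3 UMIs, all 8 feedback genes tested passed, against 37.9% of 10811 genes, 6 of them higher (19.8% of all genes) and 2 lower (18.0%), shares that were 12.2% and 28.2% without TMM scaling. Dusp2 rose by 1.63, Dusp6 by 0.90, Spry1 by 0.43, Spred1 by 0.41, Dusp1 by 0.35 and Dusp5 by 0.32 on the log2 scale, with adjusted p from 5.51e-18 (Dusp2) to 0.0198 (Dusp1, edgeR). Dusp10 fell by 1.14 and Dusp4 by 1.09. Foxp3 was lower between the same classes in every library, from 24.2, 25.3, 8.10 and 13.1 CPM at 0 to 11.4, 13.4, 2.70 and 2.52 CPM at 1 or 2 Egr3 UMIs, and its part was not tested. From 1 or 2 UMIs to 3 or more, 5 of 7 passed, against 43.2% of 6889 genes, 2 higher (22.0% of all genes) and 3 lower (21.2%). Dusp2 rose by a further 0.79 (SE 0.06, edgeR adjusted p = 1.51e-11) and Dusp10 by 1.16 (SE 0.26, edgeR adjusted p = 5.91e-04). Spry1 fell by 1.33 (SE 0.16, edgeR adjusted p = 1.24e-07), Spred1 by 0.88 (SE 0.24, edgeR adjusted p = 0.00413) and Dusp5 by 0.24 (SE 0.09, edgeR adjusted p = 0.0261). Of these 2 steps, the call for Dusp1 in the first was lost without either male library (edgeR adjusted p = 0.168 and 0.254), without TMM scaling (0.137) and by the DESeq2 Wald test (0.148), and that for Dusp5 in the second step without either library labelled Irf5-/- (0.163 and 0.0958). The DESeq2 Wald test also lost the calls for Dusp5 (adjusted p = 0.0991) and Spred1 (0.0681) in the second step.

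**Figure D3:**
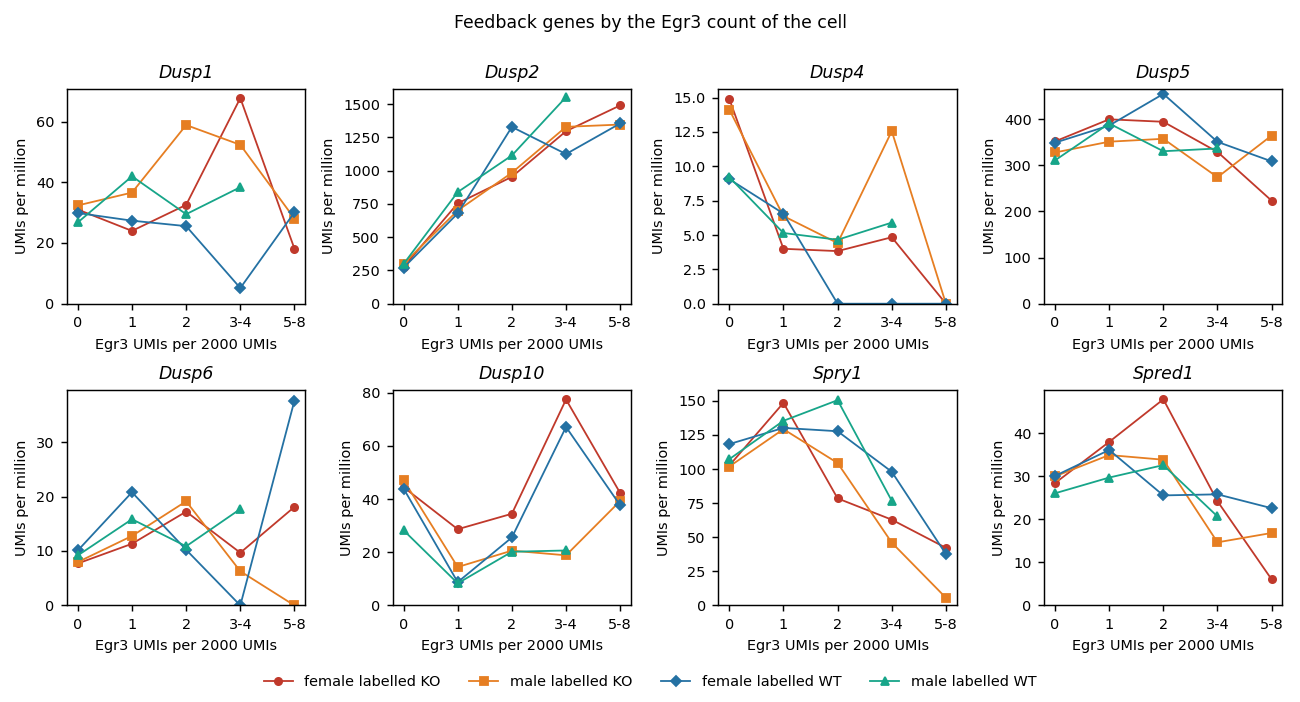
Levels of 8 feedback genes (y axis, CPM, each panel with its own scale from 0) by the number of Egr3 UMIs of the cell after thinning to 2000 UMIs (x axis), with 1 line per library and bins under 20 cells left out. Spry1 and Spred1 are highest at 1 or 2 UMIs and lower beyond, while Dusp2 keeps climbing.

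The call for Spry1 with Egr3 therefore depended on how the classes were drawn. With at least 1 Egr3 UMI against 0 it was higher, by 0.28 (edgeR adjusted p = 1.49e-04), and with at least 3 unthinned UMIs against 0 by 0.40 (edgeR adjusted p = 3.13e-04). Dusp4, which fell by 1.34 (SE 0.47, edgeR adjusted p = 0.0159) at 3 or more Egr3 UMIs, rested on 9 UMIs in that class. Its adjusted p was 0.114 without the female library labelled Irf5-/-, 0.0694 without the female library labelled WT, 0.0933 by the DESeq2 Wald test and 0.103 with cells thinned to 2000 UMIs (log2 fold change -1.96). With a library left out the log2 fold change ran from -2.14, without the male library labelled Irf5-/-, to -1.08. Median depth was lower in the Egr3 high class in every library, for example 4121 against 5143 UMIs in the female library labelled Irf5-/-, and its part in these differences was not tested. T cell markers summed to 2595 to 2820 CPM in that class and to 2477 to 2888 at 0 Egr3 UMIs. Other lineages were lower there, with erythroid markers at 0 to 2.81 CPM against 4.30 to 42.2, B cell markers at 0 to 3.91 against 0.94 to 6.58, NK cell markers at 0 to 2.52 against 1.26 to 5.73 and myeloid markers at 0 to 5.04 against 2.77 to 14.8. The 4 regulatory T cell markers were lower too, at 228 to 319 against 404 to 552 CPM, and Foxp3 was lower in 3 libraries, at 5.04, 8.87 and 0 CPM against 24.2, 25.3 and 8.10, and higher in the male library labelled WT, at 21.5 against 13.1. The part of these cells in the differences was not tested.

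Likeness was described over 36 groups (the presence classes, Foxp3 cells and Nrn1 cells in each library) as the correlation of log2 CPM centred within library, among up to 5073 genes of at least 20 CPM. The groups share libraries, so these are descriptions. Dusp2 was most like Nfkbid (Pearson's r = 0.987) and Orai1 (0.979), and Dusp4 most like Mdfic (0.945) and Itgav (0.944). Spry1 was nearest to Slc1a5 (0.932) and Chchd4 (0.911), Dusp10 to Rflnb (0.928) and Gm2682 (0.910), and Dusp5 to Snhg1 (0.925) and Nol9 (0.905). Spred1 was nearest to Il2 (0.831) and Rabep1 (0.802), Dusp1 to Tes (0.8287) and Cd83 (0.809), and Dusp6 to Mob1a (0.799) and Mrpl33 (0.779). Among the members themselves, Dusp5 and Spry1 were the most alike (0.839), and Dusp10 and Spry1 were the most opposed (-0.733).

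Foxp3 cells, those with at least 1 UMI of the regulatory T cell factor Foxp3, numbered 294, 361, 42 and 165 in the female and male libraries labelled Irf5-/- and the female and male libraries labelled WT. They were set against the cells with no UMI of Foxp3 or Nrn1. The 4 regulatory T cell markers Foxp3, Il2ra, Ikzf2 and Ctla4 summed to 2358 to 3386 CPM in them and to 327 to 403 CPM in the others, with Foxp3 itself used to draw the class. Their median depth was lower in every library, 4474.5 to 7501 UMIs against 5099.5 to 9675. The 6 T cell markers summed to 1580 to 2528 against 2477 to 2872 CPM, erythroid markers to 0 to 3.19 against 4.31 to 41.1 and NK cell markers to 0 to 1.23 against 1.41 to 5.93. B cell markers stood at 2.45 to 9.56 against 0.92 to 6.82 CPM and myeloid markers at 2.46 to 6.37 against 2.99 to 14.9. CD8 markers stood at 7.37 to 15.9 against 7.98 to 10.4 CPM and Cd4 at 54.5 to 57.4 against 42.9 to 53.1. In droplets under 200 UMIs Foxp3 stood at 19.9 to 63.8 CPM, above its level in cells in every library (7.55 to 24.2). Of the 113 cells with at least 3 UMIs of B cell, NK cell, myeloid or erythroid markers, 1 held a Foxp3 UMI at a median depth of 11181 UMIs, against 4.53% of the rest at 6738. The part of depth, of other lineages and of free RNA was not tested. Of the 9 feedback genes 7 passed, against 34.9% of 11341 genes. Higher were 2 and lower 5, against 17.5% of all genes in each direction (26.5% and 8.24% without TMM scaling), and the median log2 fold change of the 9 was -0.45.

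Dusp4 rose most. It had 8.69, 7.48, 5.82 and 5.11 CPM in the other cells and 97.0, 101, 98.8 and 91.8 CPM in Foxp3 cells. Every Foxp3 value lay above every other value, with a log2 fold change of 3.64 (SE 0.12, edgeR adjusted p = 3.46e-16). Foxp3 cells were 2.32% to 5.52% of the cells but held 22.5% to 38.6% of all Dusp4 UMIs. Dusp1 rose too, from 28.3, 31.5, 28.4 and 25.2 to 62.6, 65.4, 73.3 and 82.8 CPM, again with no overlap (log2 fold change 1.12, SE 0.11, adjusted p = 3.72e-08, edgeR).

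Spry1 and Dusp5 fell in Foxp3 cells. Spry1 went from 104, 103, 115 and 109 CPM to 56.5, 55.2, 51.0 and 56.6 CPM (log2 fold change -1.10, SE 0.09, adjusted p = 8.16e-10, edgeR). Dusp5 went from 361, 337, 351 and 315 CPM to 214, 201, 233 and 215 CPM (log2 fold change -0.86, SE 0.06, adjusted p = 1.82e-10, edgeR). In both genes every library of Foxp3 cells lay below every library of other cells. Smaller falls passed for Dusp2 (-0.43, SE 0.06), Spred1 (-0.45, SE 0.14) and Dusp10 (-0.43, SE 0.13), with adjusted p of 6.57e-06, 0.0196 and 0.0122 by edgeR. Both Spred1 and Dusp10 overlapped between the classes, and both calls were lost without the female library labelled Irf5-/- (edgeR adjusted p = 0.184 and 0.0894), without TMM scaling (0.162 and 0.149) and by the DESeq2 Wald test (0.0645 and 0.116). The Spred1 call was also lost without the male library labelled WT (-0.41, edgeR adjusted p = 0.0577), with cells thinned to 2000 UMIs (-0.43, 0.198), and within cells with an Nr4a1 UMI (-0.32, 0.527) or without one (-0.42, 0.0743). These log2 fold changes stand beside -0.45 over all such cells. The Dusp10 call was also lost without the male library labelled Irf5-/- (-0.25, edgeR adjusted p = 0.297).

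Nr4a1 was lower in Foxp3 cells of 3 libraries, at 356, 419 and 462 CPM against 560, 573 and 642, and 535 against 533 CPM in the male library labelled WT. The classes were therefore also compared within cells that had an Nr4a1 UMI and within cells that had none, a step added after the data were seen. With an Nr4a1 UMI the female library labelled WT was dropped for having 11 Foxp3 cells, and 4 of 9 members passed in the other 3, as did 1131 of the 10262 genes tested: Dusp4 (3.35), Dusp1 (0.97), Spry1 (-0.77) and Dusp5 (-0.55 on the log2 scale). The largest adjusted p of these was 2.51e-04 (edgeR). With no Nr4a1 UMI, 3081 of the 10626 genes tested passed. Dusp4 differed there by 3.81, Dusp1 by 1.38, Spry1 by -1.15 and Dusp5 by -1.03, with the largest adjusted p at 1.75e-06 (edgeR). Dusp10 also passed there, at -0.69 (edgeR adjusted p = 7.55e-04), and was 0.14 (0.855) among cells with an Nr4a1 UMI. For Dusp2 the difference was -0.18 (adjusted p = 0.129, edgeR) among cells with an Nr4a1 UMI and -0.34 (adjusted p = 0.00278, edgeR) among cells without. Only 0 to 3 Foxp3 cells per library were in the Egr3 high class, too few for that comparison.

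**Figure D4:**
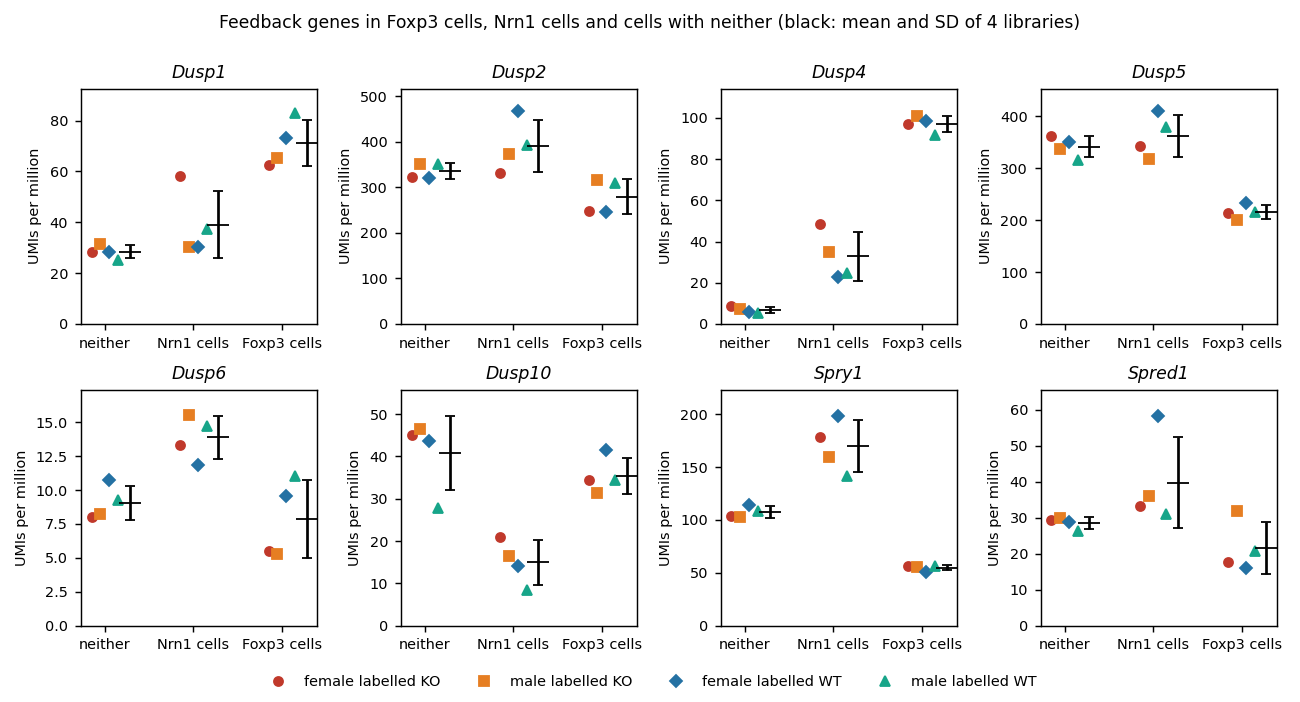
Levels of 8 feedback genes (y axis, CPM, each panel with its own scale from 0) in cells with neither Foxp3 nor Nrn1 UMIs, in Nrn1 cells and in Foxp3 cells (x axis), with 1 point per library and the mean with SD of the 4 libraries in black. Dusp4 stands at 91.8 to 101 in Foxp3 cells and at 5.11 to 8.69 in cells with neither.

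Nrn1 cells had at least 1 UMI of Nrn1, which encodes neuritin and is known from anergic and follicular helper T cells, and no Foxp3 UMI. They numbered 162, 207, 91 and 217 in the same order of libraries. Droplets under 200 UMIs had 24.5, 13.1, 14.1 and 19.04 CPM of Nrn1, against 14.9, 18.5, 17.1 and 18.02 in cells. A UMI of Nrn1 was held by 1 of the 113 cells with other lineage markers and by 3.92% of the rest. The part of free RNA in this class was not tested. Of the 9 feedback genes 4 passed, against 10.3% of 10920 genes, 3 higher (4.22% of all genes, 7.19% without TMM scaling) and 1 lower (6.09%, 5.10% without). Dusp4 had 48.6, 35.1, 22.7 and 24.7 CPM in them against 8.69, 7.48, 5.82 and 5.11 in cells with neither gene (log2 fold change 2.20, SE 0.16, adjusted p = 2.41e-08, edgeR). All 4 values were above those of the other cells and below those of Foxp3 cells, and they were higher in the libraries labelled Irf5-/-.

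Spry1, which fell in Foxp3 cells, rose in Nrn1 cells, to 178, 160, 199 and 142 CPM from 104, 103, 115 and 109 (log2 fold change 0.56, SE 0.08, adjusted p = 4.69e-05, edgeR). Dusp10 fell from 45.0, 46.4, 43.8 and 27.8 CPM to 20.96, 16.5, 14.0 and 8.37 CPM (log2 fold change -1.55, SE 0.14, adjusted p = 3.40e-07, edgeR). Neither gene overlapped between the classes. Dusp6 passed narrowly (log2 fold change 0.60, SE 0.19, adjusted p = 0.0486, edgeR) and lost the call without either library labelled Irf5-/- or without the male library labelled WT (edgeR adjusted p of 0.118 to 0.303). It was also lost by the DESeq2 Wald test (adjusted p = 0.112), with no filter on low counts (edgeR, 0.0546), with thinned cells (0.541), with at least 3000 UMIs per cell (0.0536) and within cells with an Nr4a1 UMI (0.456) or without one (0.181). In these fits its log2 fold change was 0.44 (with an Nr4a1 UMI) to 0.68 (without one). Among cells with an Nr4a1 UMI, where 372 of 9246 genes passed, Dusp4 (1.69), Spry1 (0.46) and Dusp10 (-0.92) still passed, with the largest adjusted p at 0.0290 (edgeR). Among cells with none, where 1137 of 10351 genes passed, Dusp4 (2.61), Spry1 (0.50) and Dusp10 (-1.60) passed, with the largest adjusted p at 0.00101 (edgeR). Regulatory T cell markers summed to 475 to 647 CPM in Nrn1 cells against 327 to 403 CPM, and Nrn1 cells were deeper, with medians of 5681 to 10539 UMIs against 5099.5 to 9675. T cell markers stood at 2855 to 3312 against 2477 to 2872 CPM and Cd4 at 62.6 to 92.3 against 42.9 to 53.1. B cell markers stood at 0 to 1.504 against 0.92 to 6.82 CPM, erythroid markers at 0 to 6.48 against 4.31 to 41.1, myeloid markers at 1.003 to 2.39 against 2.99 to 14.9, and all 5 NK cell markers were at 0 against 1.41 to 5.93. The part of these was not tested.

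The comparison of genotype labels asked whether the feedback genes differed between libraries labelled Irf5-/- and WT, with sex in the model. Over all cells 1 of 9 passed, against 1.21% of 12855 genes (0.809% higher and 0.397% lower), and 4 had an unadjusted p under 0.05, as did 1029 of the 12855 genes. That gene was Dusp4, at 14.1 and 13.4 CPM in the female and male libraries labelled Irf5-/- and at 8.61 and 8.87 CPM in those labelled WT. The groups did not overlap, and the log2 fold change was 0.58 (SE 0.11, edgeR adjusted p = 0.0174). The call was lost by the DESeq2 Wald test (0.58, adjusted p = 1.00) and without the filter on low counts (0.58, edgeR adjusted p = 0.188). It was also lost without the sex term (0.58, 0.246) and with cells thinned to 2000 UMIs (0.51, 0.182). In fits with no sex term and any 1 of the 4 libraries left out, which leave 1 library in a label, the log2 fold change was 0.54 to 0.64.

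Foxp3 cells were 4.76% and 5.52% of the cells in the libraries labelled Irf5-/- and 2.32% and 3.61% in those labelled WT. Without the cells that held a Foxp3 UMI, a step added after the data were seen, the Dusp4 difference was 0.45 (SE 0.12, edgeR adjusted p = 0.160). Droplets under 200 UMIs, a reading of free RNA, had 23.0, 16.0, 10.7 and 10.1 CPM of Dusp4 in the same order of libraries, above the level in cells in each of them and with the same order of labels. The part of either in the difference was not tested.

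Dusp10 had 43.8, 44.4, 42.0 and 26.9 CPM, so that only the male library labelled WT stood apart. Its log2 difference was 0.06 between the female libraries and 0.72 between the male ones, and 0.34 in the model (SE 0.12, edgeR adjusted p = 0.328). Without the female library labelled WT, in a fit with no sex term, it was 0.62 (edgeR adjusted p = 0.0331). Dusp6 had 8.07, 8.38, 10.8 and 9.64 CPM (log2 fold change -0.37, SE 0.12, adjusted p = 0.251, edgeR), and Spry1 104, 103, 118 and 109 CPM (-0.20, SE 0.09, adjusted p = 0.562, edgeR). Neither overlapped between labels, and neither passed. Nor did Dusp1, Dusp4 or Dusp10 overlap. The share of all genes with no overlap was not counted, so the lack of overlap is not read as a difference. Dusp1, Dusp2, Dusp5 and Spred1 differed by -0.09 to 0.11 on the log2 scale, with adjusted p from 0.888 to 0.993 (edgeR).

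**Figure D5:**
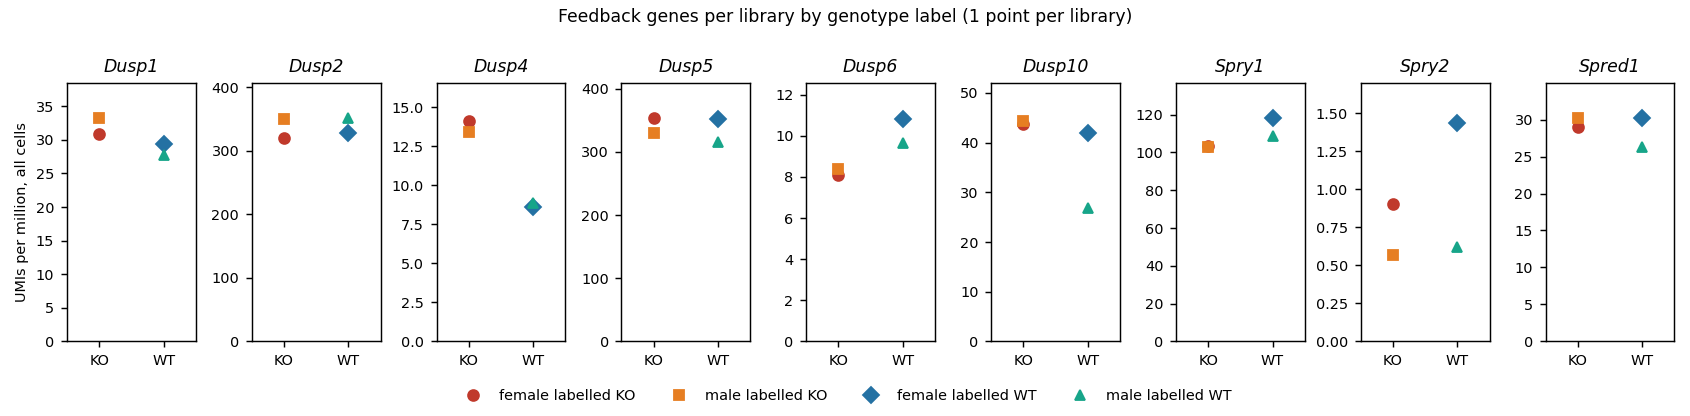
Levels of the 9 feedback genes over all cells (y axis, CPM, each panel with its own scale from 0) by genotype label (x axis), with 1 point per library. Dusp4 is at 13.4 and 14.1 in the libraries labelled KO and at 8.61 and 8.87 in those labelled WT, and the male library labelled WT is alone at the bottom for Dusp10.

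Within the Egr3 high class 0 of 5 feedback genes tested passed between labels, against 0.189% of 4762 genes (0.126% higher and 0.063% lower), with 0 at an unadjusted p under 0.05 by edgeR (271 of all genes) and 0 calls over all genes by DESeq2. Dusp2, the best counted there, differed by -0.05 (SE 0.14, edgeR adjusted p = 0.994). Whether the Egr3 difference itself differed between labels was tested as an interaction. None of 9 passed, against 0.109% of 11017 genes (0.0908% higher and 0.0182% lower), and 0 had an unadjusted p under 0.05, against 415 of all genes (edgeR; DESeq2 called 1 gene in all). For Dusp2 the interaction was 0.01 (SE 0.12, edgeR adjusted p = 1.00) on the log2 scale.

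The rest of the pathway was read from 4 lists, also chosen with earlier results of these data known. Their counts stand against 14.6% of all genes higher and 19.3% lower with Egr3, 34.4% and 37.2% with Nr4a1, and 26.5% and 28.6% with Myc. Of 17 ERK-responsive genes tested, 13 rose and 0 fell with Egr3 (median log2 fold change 2.04, against -0.13 for all genes), and 14 rose and 2 fell with Nr4a1 (1.77 against -0.04). With Myc 13 rose and 2 fell (1.13 against -0.04). With Egr3 and Nr4a1 the leading genes were Egr1, an early response transcription factor, and Fosb, a subunit of AP-1. With Myc they were Egr1 and Fosl2, another AP-1 subunit, which went from 53.6 ± 7.12 to 196 ± 33.8 CPM (SD, n = 4). Fosb went from 2.84 ± 0.73 to 119 ± 38.4 CPM (SD, n = 4) between the Egr3 classes (SE of the log2 fold change 0.26, edgeR adjusted p = 1.69e-91). Egr1 went from 137 ± 12.9 to 3163 ± 374 CPM (SD, n = 4), by 4.59 (SE 0.06).

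In the other DUSP and Sprouty genes the calls went both ways. Of 12 tested, 4 rose and 2 fell with Egr3 (median -0.35), and of 11 tested 5 rose and 5 fell with Nr4a1 (median -0.07). Dusp16, a phosphatase of JNK and p38 like Dusp10, rose with both Egr3 and Nr4a1. It went from 5.65 ± 0.80 to 27.7 ± 4.96 CPM (SD, n = 4) with Egr3, by 2.36 (SE 0.32, edgeR adjusted p = 3.42e-12), and rose by 1.32 (SE 0.14, edgeR adjusted p = 3.65e-08) with Nr4a1. Dusp14 rose in Foxp3 cells, by 3.94 (SE 0.38, edgeR adjusted p = 3.50e-08), and in Nrn1 cells, by 3.72 (SE 0.45, edgeR adjusted p = 1.67e-05), as Dusp4 did. It stood at 11.7 ± 5.09 and 8.55 ± 5.51 CPM there, against 0.61 ± 0.40 CPM in cells with neither gene (SD, n = 4).

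In the RAS and ERK relay the counts were near the background. Of 23 genes tested, 5 rose and 2 fell with Egr3 (median 0.09), where 33.9% of all genes passed, and 10 rose and 6 fell with Nr4a1 (median 0.16), where 71.6% did. Rasa3, a GTPase-activating protein that turns RAS off, fell with Nr4a1 by 1.70 (SE 0.08, edgeR adjusted p = 2.17e-13) and was higher with Egr3 by 0.97 (SE 0.16, edgeR adjusted p = 1.77e-08). Along Egr3 it had 36.1 ± 2.43, 16.5 ± 7.20 and 68.7 ± 19.5 CPM (SD, n = 4) at 0, at 1 or 2 and at 3 or more UMIs, the shape seen for Dusp10. Of the p38 and JNK relay, 11 of 16 rose and 4 fell with Nr4a1 (median 0.43). With Egr3, 6 of 17 rose and 0 fell (median 0.39), led by Gadd45b, from 450 ± 17.8 to 1606 ± 25.1 CPM (SD, n = 4). In Foxp3 cells 6 of 17 genes of this relay rose and 5 fell, against 17.5% of all genes in each direction. Among them Gadd45g, a relative of Gadd45b, rose from 4.47 ± 1.01 to 39.0 ± 9.28 CPM (SD, n = 4), by 3.05 (SE 0.18, edgeR adjusted p = 6.73e-12). Map2k3 (-0.70) and Mapk14 (-0.50) fell. Between genotype labels 0 genes passed in each of the 4 lists, where 1.21% of 12855 genes passed, so these counts are near the background.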

How the data were processed

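The deposited UMI counts per gene and barcode carried no normalization per the file headers. The submitters' processing notes name Cell Ranger 6.0.2 and mm10; the use of strand in counting is not given in the sources used here. The 9 genes, the 4 pathway lists and the markers were chosen with earlier results of these data known.

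Cells were filtered as the report states, and counts were summed per library and class, with the library as the replicate. Doublets were kept, and removing the highest scrublet scores (0.8% per 1000 cells) was an alternative. CPM are relative to all UMIs of the class. Tests used edgeR 4.0.16 in R 4.3.3 (TMM, filterByExpr, quasi-likelihood test, Benjamini-Hochberg over all genes tested), with library as a block for cell classes and sex as a term for genotype labels. Without TMM the median log2 fold change of all genes moved by -0.17 (Nr4a1), -0.11 (Myc), 0.18 (Foxp3 cells) and -0.13 (1 or 2 Egr3 UMIs against 0). The fits were tested on simulated data; in the genotype design, with a single residual degree of freedom, false calls ran above the nominal rate. Named genes were all 9 members, Irf5, the 2 largest called changes per list and direction, and the 2 genes most like each member; the text prints part of them.

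Alternatives were DESeq2 1.42.0, no filter on low counts, no TMM, no sex term, each library left out, cells thinned to 2000 UMIs, at least 3000 UMIs per cell, T cells only, doublets removed and other class definitions. The fits without TMM, the splits of Foxp3 and Nrn1 cells by Nr4a1, the fit without Foxp3 cells and the tests of the middle Egr3 class were chosen after seeing the data. Gene coordinates are from GENCODE M21 on GRCm38, and promoters from RefSeq on GRCm38.p6.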

Additional observations from a re-analysis of the deposited data

Results flagged for a closer look

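Dusp4 in the Myc comparison moved opposite ways in the 2 labels. High over low class, the log2 differences were -0.54 and -0.86 in the female and male libraries labelled Irf5-/- and 0.47 and 0.51 in those labelled WT. The means differed by -1.19 between labels, and this difference was not tested.

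Dusp5 in Nrn1 cells did the same at a smaller size, with -0.08 and -0.09 in the female and male libraries labelled Irf5-/- and 0.22 and 0.27 in those labelled WT. The means differed by -0.33, which was not tested.

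Spry2 in the Nr4a1 comparison gave -0.21 and -1.43 in the libraries labelled Irf5-/- and 1.03 and 2.22 in those labelled WT, a difference of -2.44 that was not tested and that rests on 1 to 9 UMIs per library in the high class.

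Spred1 in Nrn1 cells had 1 library apart. The female library labelled WT gave a log2 difference of 1.01, and the other 3 gave 0.18 to 0.28. It held 54 Spred1 UMIs in 91 Nrn1 cells. By chance about 5% of such groups would show a library this far out, and several were looked at.

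Spred1 between genotype labels had opposite signs in the sexes, -0.06 between the female libraries and 0.20 between the male ones. The difference of -0.26 was not tested, since each sex holds 1 library per label.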

How the results depend on the processing

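The results are limited by 4 libraries, by 50 to 110 cells per library in the Egr3 high class and by the few UMIs of Spry2, Dusp4 and Dusp6. For single genes, 799 values under an alternative kept their direction and side of the threshold, 42 lost a call, 21 gained one and 48 changed sign. The causes were not tested. Among the libraries labelled KO or WT, the female is replicate 1 and the male replicate 2, numbers given in accession order. The cell class fits were paired by library, and the genotype fits by sex, which the fit with no sex term leaves out.

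Between genotype labels, the count of feedback genes called fell from 1 to 0 by the DESeq2 Wald test, with no filter on low counts, with no sex term, with thinned cells and without cells holding a Foxp3 UMI. Over all genes, thinned cells gave 140 calls (1.29% of 10848) and the fit without Foxp3 cells 117 (0.924% of 12656). A library was left out of the genotype fits only together with the sex term, so those values stand against the fit with no sex term (0 members, 7 genes). The count of members was then 0 without KO replicate 1, KO replicate 2 or WT replicate 2, and 1 (Dusp10 in place of Dusp4) without WT replicate 1. Over all genes the 155 calls became 47 by DESeq2, 20 with no filter, 7 with no sex term and 43 to 117 with no sex term and a library left out (47 without KO replicate 1, 53 without KO replicate 2, 43 without WT replicate 2). In the Egr3 high class the 9 calls over all genes became 0 by DESeq2, 15 with no filter, 2 with no sex term, 4 with thinned cells, 5 in T cells only and 7 to 44 with no sex term and a library left out (15 without KO replicate 1, 44 without WT replicate 1). For the interaction the 12 calls over all genes became 1 by DESeq2 and 1 with thinned cells.

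Among uncalled genotype differences, where a library was again left out with the sex term, Dusp5 (-0.03) turned to 0.035 without TMM, 0.029 with thinned cells and 0.0073 with at least 3000 UMIs, and ranged from -0.082 to 0.020 with a library left out (0.016 without KO replicate 2 and 0.020 without WT replicate 1). Spred1 (0.01) was -0.074 with thinned cells and -0.069 to 0.078 with a library left out (-0.026 without KO replicate 2, -0.069 without WT replicate 2). Spry2 (-0.46) ranged from -1.02 to 0.12, the latter without WT replicate 1. In the Egr3 high class Dusp2 (-0.05) was 0.022 without TMM, 0.053 with thinned cells and -0.21 to 0.15 with a library left out (0.15 without WT replicate 2), and Dusp10 (0.20) ranged from -0.52 to 1.07 (-0.51 without KO replicate 1, -0.52 without WT replicate 2). In the interaction, Dusp1 was -0.16 with thinned cells, and Dusp2 (0.01) was -0.015 by DESeq2, -0.014 with no filter, -0.0044 without TMM and -0.032 with at least 3000 UMIs.

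For the Egr3 classes, 3 called members became 8 of 8 with at least 1 thinned UMI against 0 (39.2% of all genes) and 8 of 8 with at least 3 unthinned UMIs (38.2%), and the 3738 calls over all genes became 1886 with thinned cells. Under those 2 class definitions the signs changed for Dusp5 (0.27 and 0.24), Spry1 (0.28 and 0.40) and Spred1 (0.29 and 0.40). Dusp5, uncalled at -0.04, was also 0.039 by DESeq2, 0.10 with thinned cells and -0.0997 to 0.034 with a library left out. Dusp10, uncalled at -0.10, was 0.012 with at least 3000 UMIs and -0.33 to 0.20 with a library left out. Between 3 or more and 1 or 2 Egr3 UMIs, DESeq2 called 3 members in place of 5 and 1981 genes in place of 2976, and Dusp1, uncalled at 0.09, was -0.045 with no filter and -0.10 to 0.22 with a library left out.

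With at least 3 unthinned UMIs, Dusp4 turned to 0.13 for Nr4a1, and for Myc 8644 genes were called in place of 5728. Dusp4 in the Myc classes, uncalled at -0.04, was 0.0017 by DESeq2, 0.047 with thinned cells, 0.096 with at least 1 UMI, 0.17 with at least 3 unthinned UMIs and -0.34 to 0.22 with a library left out.

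In Foxp3 cells, 4 members passed in place of 7 and 1131 genes in place of 3963 among cells with an Nr4a1 UMI, where Dusp10 turned to 0.14. The calls over all genes were 2358 with thinned cells and 2637 to 3814 with a library left out. In Nrn1 cells the 1126 calls over all genes became 372 among cells with an Nr4a1 UMI and 583 to 1295 with a library left out. There, Dusp2 turned to -0.033 among cells with an Nr4a1 UMI, and Dusp5, uncalled at 0.02, was -0.0017 with no filter, -0.17 with at least 2 UMIs, -0.090 with the class drawn after thinning, -0.063 among cells with an Nr4a1 UMI and -0.041 to 0.090 with a library left out. Comparing Foxp3 or Nrn1 cells within the Egr3 high class was not run, as no library had over 3 such cells.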
